A study of Mus musculus with 2 samples.

Results

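Rn45s, Lars2 and Mir6236 are the 3 genes described here, out of 23924 gene symbols in a table of 33529 transcript rows. They were chosen by symbol because they took most of the signal of the nucleolin pulldown. That choice used the measured values, so the values are a description and no test is attached to them. Each gene has 1 transcript row (NR_046233 for Rn45s, NM_153168 for Lars2 and NR_105744 for Mir6236), so the value of the row and the sum for the symbol are the same.

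The study asked which transcripts the protein nucleolin binds. RNA was immunoprecipitated from nuclear extracts of RAW 264.7 cells, a mouse macrophage cell line, with an antibody against nucleolin or with rabbit IgG as the control. Depletion of mRrp6, a ribonuclease of the nuclear exosome, was common to both groups, and both received LPS, a bacterial outer membrane lipid that activates macrophages, at 80 ng/ml for 12 h. There were 2 libraries, 1 per group (called the IgG pulldown and the nucleolin pulldown), and no group without the depletion or without LPS, so nothing measures the spread between replicates. The library titled for nucleoplasmic RNA was taken as the nucleolin pulldown from the series' design text and the column symbol NCL. The labels do not say how mRrp6 was depleted or whether the cells were 1 clone.

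In every nucleolus, RNA polymerase I transcribes the 45S precursor, which is cut and trimmed into RNAs of the large and small ribosomal subunits. Nucleolin is an abundant nucleolar protein that binds this precursor near its 5' end and takes part in its early processing. Rn45s is the symbol of the precursor, and its value does not tell the precursor apart from the RNAs cut from it. Lars2 encodes the enzyme that charges leucine onto its transfer RNA in mitochondria. Mir6236 is annotated as a microRNA gene, that is a source of a short RNA that guides Argonaute proteins to messenger RNAs through its seed, bases 2 to 8.

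The mature Mir6236 sequence is shown because this gene gave the highest value of the whole table, with the mature sequence of Mir142b, the other microRNA gene above 0, beside it. Both come from RefSeq on GRCm38.p6 (mm10), and the capitals mark the seed.
mmu-miR-6236: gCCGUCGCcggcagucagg
mmu-miR-142b: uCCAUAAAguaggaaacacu
The first lies at chr9:110281353-110281371 on the plus strand, at bases 67 to 85 of its 123-base gene, and the second at chr11:87756906-87756925 on the minus strand. In mmu-miR-6236, 15 of 19 bases are G or C (78.9%), while mmu-miR-142b has 35.0% and the median of 1738 mature mouse sequences is 52.2%. Only 19 of the 1738 had a higher share. No other mature sequence in the set has the seed of either. The longest run that mmu-miR-6236 shares with another mature sequence is 11 bases, its bases 9 to 19, which are in capitals in the next pair of sequences.
mmu-miR-6236: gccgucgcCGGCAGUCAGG
mmu-miR-6933-5p: uggCGGCAGUCAGGauaccugu
The shared run does not touch the seed of mmu-miR-6236.

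The 2 libraries also differed in markers of other cells. Of 10 macrophage markers 8 were measured. FPKM are fragments per kilobase of transcript, scaled to the mapped fragments of the library, so levels of different genes are compared per length. The summed level of the 8 was 703 FPKM in the IgG pulldown and 633 FPKM in the nucleolin pulldown. In the latter 3 markers were 2-fold or more higher and 3 lower. Of 3194 genes with at least 1 FPKM in either library, 37.8% were that much higher and 56.7% lower. After the median log2 difference of genes in both libraries was taken off, 4 markers were higher and 1 lower. The shares of all compared genes were then 40.1% and 47.2%. Lyz2, Csf1r and Itgam were at 0 in the IgG pulldown. Cd68 was higher there (138 and 16.2 FPKM with IgG and nucleolin antibody). So were Tyrobp (116 and 49.4 FPKM) and Spi1 (37.4 and 14.9 FPKM) in FPKM as deposited. The log2 differences of Tyrobp (-1.22) and Spi1 (-1.27) were near the median of all compared genes, -1.27. Over all genes, 2009 were at 0.1 FPKM or more in the IgG pulldown, and 538 of them also in the nucleolin pulldown. Most genes listed with IgG were thus at or near 0 with the nucleolin antibody. Of 6 epithelial markers 5 were measured, all at 0 in the nucleolin pulldown, with a sum of 448 FPKM in the IgG pulldown. All 6 genes of gastric and pancreatic secretory products were likewise at 0 in the nucleolin pulldown and summed to 18314 FPKM in the IgG pulldown. The part of these transcripts in the shares of Rn45s and Lars2 was not tested.

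The 3 genes together made up 43.1% of the FPKM sum of the IgG pulldown and 90.0% of that of the nucleolin pulldown. Rn45s ranked first in the IgG pulldown and second in the nucleolin pulldown. Lars2 ranked just below Rn45s in both. Mir6236 was listed at 0 in the IgG pulldown and ranked first in the nucleolin pulldown. All other rows summed to 108402 FPKM in the IgG pulldown and 36263 FPKM in the nucleolin pulldown.

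**Figure D1:**
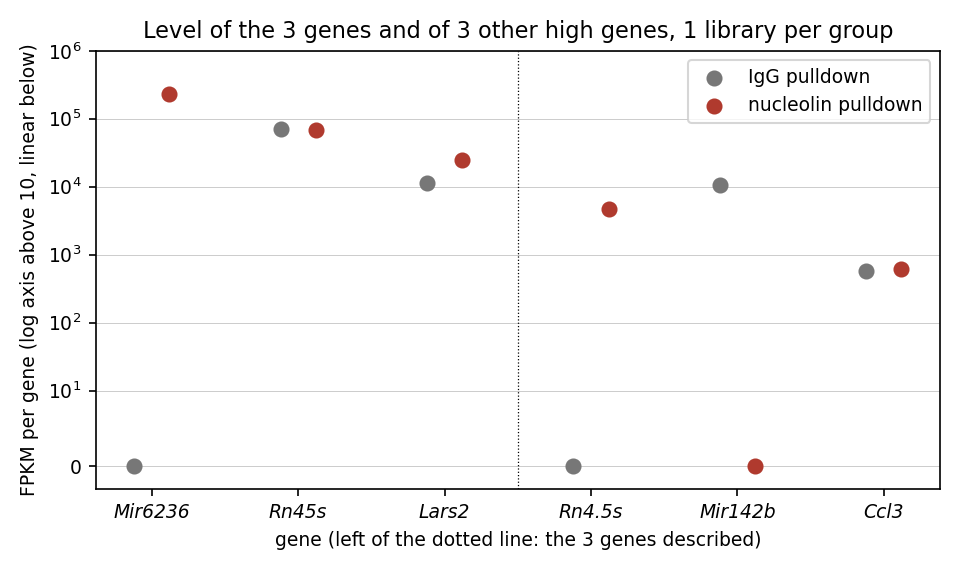
FPKM (vertical axis, logarithmic above 10 and linear below) of Rn45s, Lars2, Mir6236 and of Rn4.5s, Mir142b and Ccl3, with 1 point per library. Rn45s lies at nearly the same height in both libraries, Lars2 lies higher in the nucleolin pulldown, and Mir6236 lies at 0 in the IgG pulldown and at the top in the nucleolin pulldown.

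Rn45s stood at 70761 FPKM in the IgG pulldown and 68377 FPKM in the nucleolin pulldown. The ratio was 0.966 and the log2 difference -0.05 with 1 FPKM added to both values. This near-equality holds for FPKM as deposited and changed with the scaling. The log2 difference was 1.14 after centring on genes in both libraries, 1.53 with the sum of all other rows set equal, 1.31 with 1 fragment set equal and -0.98 by share of the FPKM sum. With 1 fragment set equal, the 2.57 times greater depth of the nucleolin pulldown, derived below, stays in the value. The other rows include the 18314 FPKM of secretory products listed with IgG alone. These alternatives are not separate evidence of a difference. Rn45s held 37.2% of the FPKM sum in the IgG pulldown and 18.9% in the nucleolin pulldown. With Mir6236 left out of the sum, its share of the nucleolin pulldown was 52.8%. The gene ranked after the 3 was Mir142b in the IgG pulldown, at 10684 FPKM, and Rn4.5s, a 4.5S RNA, in the nucleolin pulldown, at 4741 FPKM. Rn45s stood 6.62 times above the first and 14.4 times above the second. Pgc and Clps, for pepsinogen C and colipase, followed with IgG at 5078 and 4349 FPKM, and Ccl3, a chemokine gene, followed with the nucleolin antibody at 620.4 FPKM. The RefSeq gene table used here gave no position for Rn45s.

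Lars2 was at 11227 FPKM in the IgG pulldown and 24793 FPKM in the nucleolin pulldown, 2.21 times higher in the latter, a log2 difference of 1.14 on the same scale. Under the same alternatives it was 2.33, 2.72, 2.51 and 0.22, the last under 2-fold. It held 5.90% and 6.85% of the summed FPKM, so its share of the sum differed far less than its level. Without Mir6236 in the sum, its share of the nucleolin pulldown was 19.2%. The gene lies on chromosome 9 from 123366927 to 123462675 on mm10. Mir6236 lies on the same chromosome from 110281287 to 110281409 and does not overlap it.

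The 2-fold line that Lars2 and Mir6236 passed was passed in the same direction by many genes. Of 3194 genes with at least 1 FPKM in either library, 37.8% were 2-fold or more higher and 56.7% were 2-fold or more lower in the nucleolin pulldown. Lars2 and Mir6236 were chosen for their signal in the nucleolin pulldown, which enters this difference. Nothing is therefore read from their count against those shares. The median log2 difference was -1.27 over the 3194 genes and -1.19 over the 538 genes at 0.1 FPKM or more in both libraries. Rn45s and Lars2 lay above both medians. By the fragment lines given below, the FPKM of 1 fragment in the nucleolin pulldown was 0.389 times that in the IgG pulldown. The medians depend on this ratio where genes hold few fragments, so nothing is read from the position of Rn45s and Lars2.

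**Figure D2:**
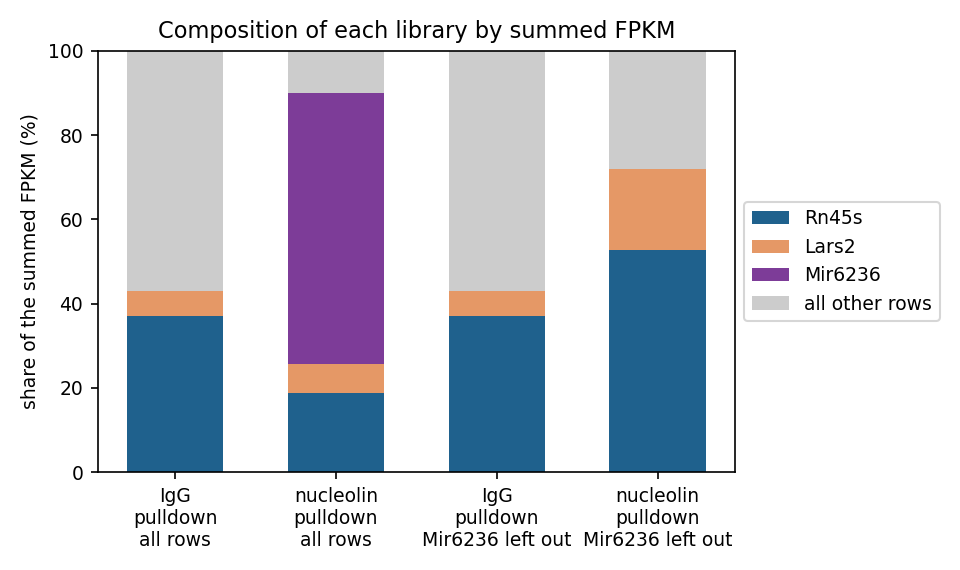
Share of the summed FPKM (vertical axis, percent) of Rn45s, Lars2, Mir6236 and all other rows in each library, over all rows (left pair of bars) and with Mir6236 left out of the sum (right pair). Over all rows the nucleolin bar is mostly Mir6236 (64.3%), and with it left out Rn45s (52.8%) is the largest part.

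The ratio of Rn45s to Lars2 within a library does not depend on how the libraries are scaled. It was 6.30 in the IgG pulldown and 2.76 in the nucleolin pulldown. Relative to Rn45s, Lars2 was therefore 2.29 times higher in the nucleolin pulldown.

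The number of fragments behind these values was not stated and was recovered from low genes. For a gene without introns the annotated span is the length of its transcript, and a gene with 1 fragment then has an FPKM that falls as the span grows. In the IgG pulldown, 19 of 264 genes with 1 transcript row, over 0.5 FPKM and a span of 600 to 6000 bases lay on 1 such line within 0.2%, and 4 more lay on the line of 2 fragments. In the nucleolin pulldown, 9 of 225 lay on the line of 1 fragment and 1 on that of 2. A span that includes introns puts a gene off the lines. Among these genes over 0.5 FPKM, 4 of the IgG pulldown and 2 of the nucleolin pulldown, Mup genes with near-identical copies among them, had less than the worth of 1 fragment. Genes at 0.5 FPKM or less were not used for the lines.

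**Figure D3:**
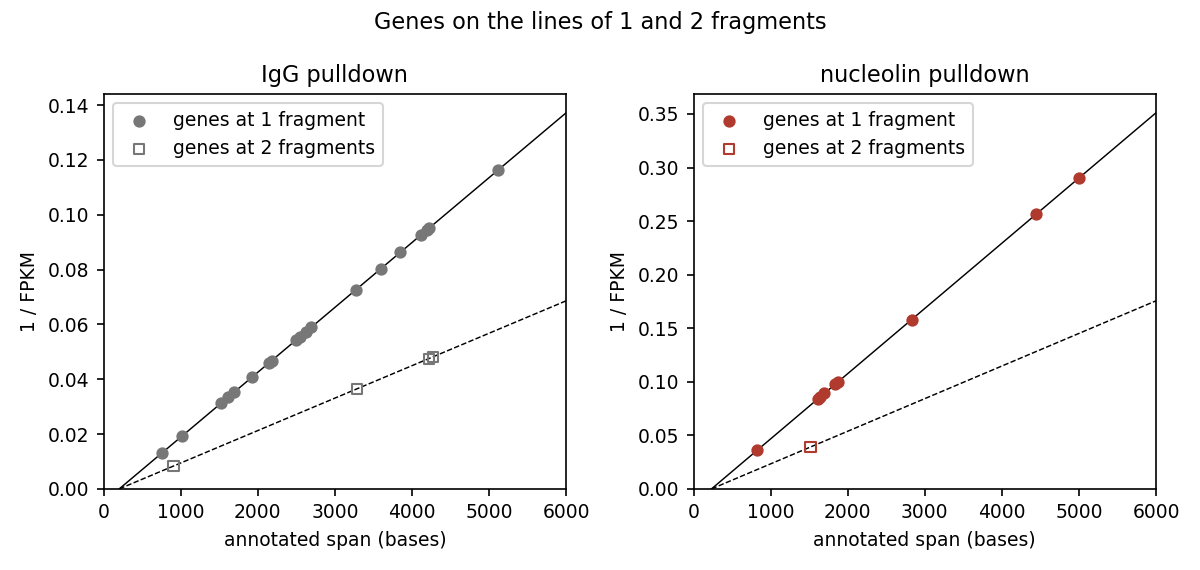
The inverse of FPKM (vertical axis) against the annotated span in bases (horizontal axis) for genes on the lines of 1 fragment (solid, filled circles) and 2 fragments (dashed, open squares), by library. The lines meet the horizontal axis at 203 bases in the IgG pulldown and 234 bases in the nucleolin pulldown.

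The slopes correspond to a scaling total of 23670 fragments in the IgG pulldown and 60896 fragments in the nucleolin pulldown, if FPKM was scaled to all mapped fragments and the lowest line is 1 fragment. The nucleolin pulldown was thus 2.57 times deeper. The lines reach the axis at 203 and 234 bases, which corresponds to a stretch taken off the length before the division. On a kilobase of this shortened length, 1 fragment was worth 42.2 FPKM in the IgG pulldown and 16.4 FPKM in the nucleolin pulldown. Sfn, a 14-3-3 protein gene with a span of 1613 bases, was at 30.0 and 11.9 FPKM and held 1 fragment in each library.

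On that footing Rn45s had 1675 fragments per kilobase in the IgG pulldown and 4164 in the nucleolin pulldown. The exact Poisson 95% intervals for 1 kb of transcript were 1596 to 1757 and 4038 to 4292. Averaged over its length, Rn45s thus held 7.08% of the fragments of the IgG pulldown and 6.84% of those of the nucleolin pulldown per kilobase. Coverage along the transcript was not measured. At these mean shares, 14.1 kb of transcript would have taken every fragment of the IgG pulldown, and 14.6 kb every fragment of the nucleolin pulldown. The total share of fragments on Rn45s is not given, because the length used by the authors was not found in the sources used here.

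Lars2 had 266 fragments per kilobase in the IgG pulldown (95% interval for 1 kb 235 to 300.0) and 1510 in the nucleolin pulldown (1435 to 1588). These were 1.12% and 2.48% of the fragments per kilobase. From these counts for 1 kb, an exact 95% interval of the nucleolin-to-IgG FPKM ratio ran from 0.913 to 1.02 for Rn45s. For Lars2 it ran from 1.94 to 2.52. Whether the interval of Rn45s includes equal levels depends on the length taken, so equality is not read from it. The interval of the change of Lars2 relative to Rn45s, the 2.29-fold difference, ran from 1.98 to 2.64. All these intervals take 1 kb of each transcript and would be narrower for a longer one. They cover counting error only, treat fragments as separate molecules, and say nothing of the spread between immunoprecipitations, which was not measured.

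Mir6236 was at 0 FPKM in the IgG pulldown and 232751 FPKM in the nucleolin pulldown, 64.3% of the latter's summed FPKM. Its span of 123 bases is shorter than the 234 bases taken off on the line of the nucleolin pulldown, so that line gives no fragment number for it. A limit follows from the span itself. If the whole 123 bases entered the division, 1 fragment was worth 134 FPKM and the value stands for 1743 fragments, and a shorter divisor means fewer. Mir6236 therefore held at most 2.86% of the 60896 fragments of the nucleolin pulldown, against 64.3% of its summed FPKM. Its number of fragments lies anywhere from 1 to 1743 on these data. A number as low as 1 would need a divisor of 0.0706 bases.

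The 0 of the IgG pulldown is bounded in the same way. A count of 0 allows up to 3 fragments, or 0.0127% of the 23670 fragments. At 7 or fewer fragments in the nucleolin pulldown, the same share in the shallower IgG pulldown would come to under 3 fragments, and the 0 would lie within counting error. At the highest number, 1743, the same share would have come to 678 fragments. No fold is given for Mir6236, since its IgG value is 0 and its fragment number is known only within these limits.

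In FPKM as deposited, the other microRNA gene above 0 showed the opposite pattern. Of 1069 microRNA genes in the table only Mir6236 and Mir142b were above 0. Mir142b (chromosome 11, 87756841 to 87756955) stood at 10684 FPKM in the IgG pulldown and 0 in the nucleolin pulldown. Its span of 115 bases allows at most 29.1 fragments, 0.123% of the IgG pulldown. The highest possible fragment number of Mir6236 was thus far above that of Mir142b. These are upper limits, and the actual numbers of both genes are not known. Whether the 0 of Mir142b lies within counting error is therefore not known either.

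In the nucleolin pulldown, the measured neighbours of Mir6236 and Lars2 were far below both genes. In the IgG pulldown Mir6236 was itself at 0. Within 100 kb of Mir6236, Cspg5 and Elp6 were listed at 0 in both libraries, Smarcc1, a chromatin remodelling subunit gene, at 0 and 6.04 FPKM in the IgG and nucleolin pulldowns, and Scap, which encodes a sterol sensor, at 21.5 and 0 FPKM. RefSeq places the long non-coding RNA gene Gm39429 across Mir6236, on chromosome 9 from 110266638 to 110282670, and this gene has no row in the table. Within 100 kb of Lars2, the neighbours Limd1 and Sacm1l were listed at 0 in both libraries. The long non-coding RNA gene Gm46137, from 123381659 to 123390477, overlaps Lars2 and also has no row. The labels do not state the use of strand or the handling of fragments with several alignments, so the assignment of fragments to Rn45s, Lars2 and Mir6236 is uncertain where sequences are shared.

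**Figure D4:**
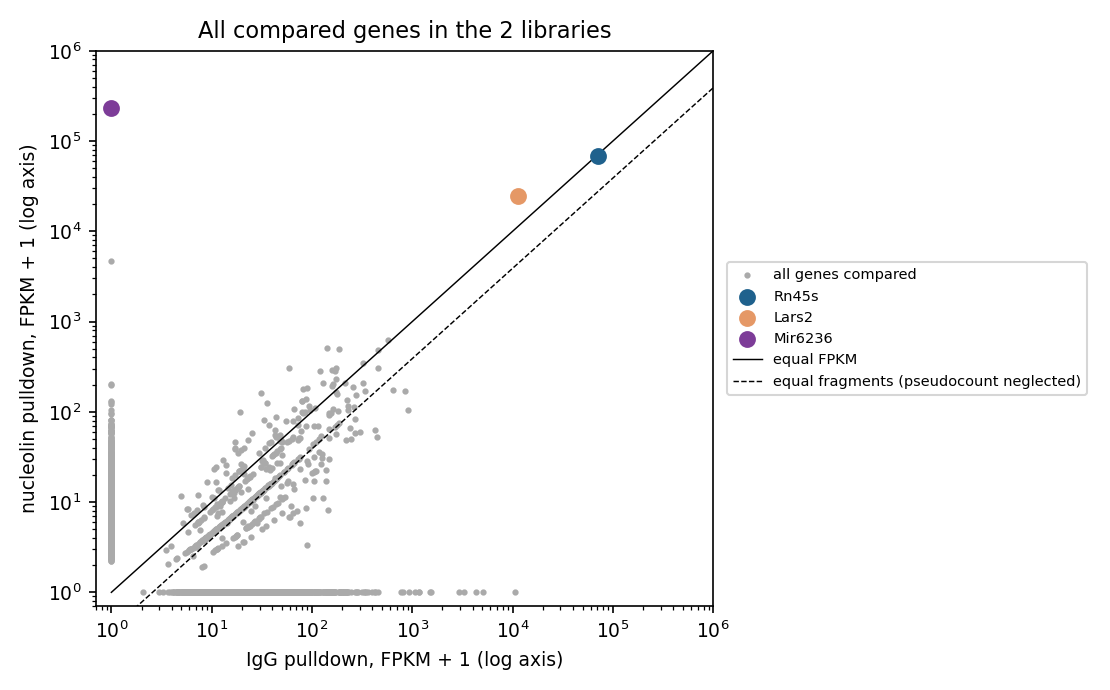
FPKM plus 1 in the IgG pulldown (horizontal) against the nucleolin pulldown (vertical), both on log axes, for the 3194 genes compared, with Rn45s, Lars2 and Mir6236 in colour. Rn45s lies on the solid line of equal FPKM, Lars2 lies above it, Mir6236 lies on the left edge, where the IgG value is 0, and many low genes follow the dashed line of equal fragments.

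Genes whose ratio was nearest to that of Rn45s, among 54 others above 0 in both libraries with a mean of at least 100 FPKM, were Rpl10 (214 and 205 FPKM in the IgG and nucleolin pulldowns) and Rpl7 (174 and 164 FPKM), both for large ribosomal subunit proteins. The next was Ybx1, for an RNA-binding protein (106 and 109 FPKM). Their log2 differences of -0.06, -0.08 and 0.04 lay within 0.09 of that of Rn45s. Nearest to Lars2 were Gnb2l1, for the ribosome-bound protein RACK1 (80.4 and 177 FPKM), Rpl18 (88.7 and 185 FPKM) and Gapdh, of glycolysis (118 and 284 FPKM), with log2 differences of 1.13, 1.05 and 1.26. The likeness rests on 1 ratio over 2 libraries. Of 1205 genes above 0 in the nucleolin pulldown and at 0 in the IgG pulldown, the highest after Mir6236 were Rn4.5s (4741 FPKM), Rpl23a, for another ribosomal protein (202 FPKM), and Lyz2, the lysozyme of myeloid cells (199.6 FPKM).

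The genes that make and process ribosomal RNA were listed at far lower levels than Rn45s. Of 21 genes for RNA polymerase I and its factors 5 were measured, 2 of them 2-fold or more higher in the nucleolin pulldown and 3 lower. The 2 were at 0 with IgG and the 3 at 0 with the nucleolin antibody. Their median log2 difference of -4.74, against -1.27 over all compared genes, thus rests on the pseudocount and gives no size of change. Over all compared genes 37.8% were higher and 56.7% lower. Polr1d, for a subunit shared by polymerases I and III, was at 45.2 FPKM in the IgG pulldown and 0 in the nucleolin pulldown. So was Taf1d, for a subunit of the promoter selectivity factor, at 44.7 FPKM. Polr1a, the largest subunit, was at 0 and 11.2 FPKM. Of 53 genes for ribosomal RNA processing and modification 19 were measured, 12 higher and 5 lower against the same 37.8% and 56.7%, with a median of 2.89. Of the 19, 12 had under 0.1 FPKM with IgG and 4 with the nucleolin antibody. Over all genes, 1729 had 0.1 FPKM or more in the nucleolin pulldown, and only 538 of them also with IgG. Fbl, the methyltransferase of the box C/D particles, was at 44.2 and 35.5 FPKM, and Nop10, of the H/ACA particles, at 78.9 and 0 FPKM. Ncl itself was at 5.25 and 6.14 FPKM, and Exosc10, which encodes mRrp6, at 0 and 6.42 FPKM. Both groups were depleted, so the Exosc10 values do not check the depletion. No value in either list exceeded 78.9 FPKM.

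The other mitochondrial aminoacyl-tRNA synthetase genes did not share the level of Lars2. Of the 16 other genes of that list only Wars2, the mitochondrial tryptophan enzyme, was measured, at 0 FPKM in the IgG pulldown and 3.95 FPKM in the nucleolin pulldown. Of 20 genes for the cytosolic enzymes 15 were measured, of which the nucleolin pulldown had 10 higher and 3 lower (37.8% and 56.7% over all compared genes), with a median log2 difference of 2.82. Of the 15, 10 had under 0.1 FPKM with IgG and 3 with the nucleolin antibody. Over all genes, only 538 of the 1729 at 0.1 FPKM or more in the nucleolin pulldown reached it with IgG. The highest values among the 15 were 22.4 FPKM in the IgG pulldown, for Farsb, and 17.1 FPKM in the nucleolin pulldown, for Qars. Of 12 genes for microRNA biogenesis and action 4 were measured, and all 4 were 2-fold or more lower in the nucleolin pulldown as deposited, as were 56.7% of all compared genes. After centring on genes in both libraries 1 of the 4 was, where 47.2% of all compared genes were lower and 40.1% higher. Ddx5, an RNA helicase of the Drosha complex, was at 63.7 and 15.0 FPKM, and Drosha, the nuclease that cuts primary microRNAs, at 9.68 and 3.79 FPKM. The median of the list was -1.60.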

How the data were processed

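The authors deposited FPKM values, 1 column for each pulldown, as the column headers name them. Tools listed in the submitters' processing notes are Trimmomatic 0.32 and FastQC 0.10.0, with build mm10. Alignment, quantification and any correction of length: not given in the sources used here. Rows were summed by symbol, and 56 rows without one entered only the library sums. Log2 differences used a pseudocount of 1, which understates changes of low genes, and genes reaching 1 FPKM in a library were compared. Below 0.1 FPKM a gene is called at or near 0. With 1 library per group no test was made.

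Fragment totals came from a line of 1/FPKM against RefSeq span, found by counting genes within 0.2% (histone genes left out), a step added after seeing the data, whose computation was tested on simulated data built to meet its assumptions. Intervals are exact, at 95%, and cover counting error only. Genes were named by a fixed rule: the 3 genes, the 5 highest of each library, the nearest ratios, neighbours and high list members; Sfn, the smaller list members and the remaining markers were chosen after their values were seen. The 3 genes and all lists were chosen with earlier results of these data known. Alternatives changed the pseudocount, the filter, the row handling, the sums and the scaling. Python 3.11.15, pandas 2.3.3, numpy 2.4.6, scipy 1.17.1 and matplotlib 3.10.9 were used.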

Additional observations from a re-analysis of the deposited data

How the results depend on the processing

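The scaling decided how Rn45s compared between the libraries. Its log2 difference of -0.05 became 1.14 after centring on genes in both libraries, 1.53 with the sum over all other rows set equal, 1.31 with 1 read set equal, and -0.98 by share of the summed FPKM. Setting 1 read equal does not remove the difference in depth. Lars2 moved from 1.14 to 2.33, 2.72, 2.51 and 0.22 under the same settings and stayed higher in the nucleolin pulldown. Mir6236, whose value of 17.83 rests on a pseudocount against 0, moved to 19.01, 19.41, 19.19 and 16.90, and to 21.15 and 14.51 with pseudocounts of 0.1 and 10. Without Mir6236 in the sum, the nucleolin pulldown shares of Rn45s and Lars2 were 52.8% and 19.2%. Without all genes under 200 bases they were 54.8% and 19.9%, and 39.4% and 6.25% in the IgG pulldown. Counting each accession once put Mir6236 at 65.0%. With 100 bases taken off its length, its limit fell from 2.86% to 0.535% of the fragments. With 200 bases off, or with a coding length for Lars2, no value could be given. The count of genes 2-fold or more higher fell from 1206 to 448 at a minimum of 10 FPKM and to 439 with a pseudocount of 10. The row settings, other pseudocounts for Rn45s and Lars2, and sums over rows with a symbol moved their results by less than the counting error. No paired analysis was possible because each group had 1 library, and no replicate could be left out. Depth limits most low genes, for which 1 fragment on 1 kb was worth 42.2 FPKM with IgG and 16.4 FPKM with nucleolin antibody.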

Other observations

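The remaining short RNA genes can be given as fragment limits on the same footing. Rn4.5s, listed in 10 copies with a span of 174 bases, summed to 4741 FPKM in the nucleolin pulldown and 0 in the IgG pulldown. This allows at most 50.2 fragments, 0.0825% of the nucleolin pulldown. Rmrp, the RNA of RNase MRP, with a span of 275 bases, was at 1061 FPKM in the IgG pulldown and 0 in the nucleolin pulldown, at most 6.91 fragments. Rpph1, the RNA of RNase P, has a span of 325 bases, and its 340.0 and 169.8 FPKM stand for 0.981 and 0.940 fragments on the lines of the IgG and nucleolin pulldowns. At this length the lines thus still came within 10% of 1 whole fragment. Junb, an immediate early transcription factor gene with a span of 1840 bases, held 5 fragments in the IgG pulldown (129 FPKM) and 1 in the nucleolin pulldown (10.2 FPKM).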
